A study of Mus musculus with 2 samples.

Results

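The interferon regulatory factor (IRF) genes Irf1, Irf2, Irf3, Irf4, Irf5, Irf7, Irf8 and Irf9 were examined in a reporter plasmid assay. The sequence around them was searched for elements with a positive or negative fold of reporter RNA. An element was counted as one of theirs when its midpoint lay within 50 kb of a GENCODE M21 transcript start of the gene. By that rule 16 of the 18431 elements in the series belonged to the family. Those within 1000 bp of a start of the gene were called promoter elements and the others distal. The rule uses positions and no folds, but the family was picked with earlier results of these data known.

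The assay was STARR-seq, in which genomic fragments are cloned into the transcribed part of a plasmid and each fragment is read in the RNA it produces. The cells were primary T-helper 2 (Th2) cells from C57BL/6NJ mice, transiently transfected with the plasmid pool. Per the labels, activation used anti-CD3e (0.25 ug/mL) together with the costimulating anti-CD28 (1 ug/mL), each over 3 days. The cells also received anti-Interferon-gamma (2 ug/mL) and Interleukin-2 over 4 days, and Interleukin-4. The study has 1 group of 2 libraries that carry the same donor record, and no interferon treatment is listed. The deposited table combines both libraries, with 1 log fold, 1 p-value and 1 q-value for each element and no read count. No spread between the libraries can therefore be given, the depth behind an element is unknown, and no test over samples was possible. All folds, p-values and q-values below are those of the authors' deposited table. The fold is read as log2 of output RNA over input DNA, which the sources used here do not state. The assay does not read the RNA of the cells' own genes, so the Th2 label could not be checked against markers.

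IRF proteins share an N-terminal DNA-binding domain that recognises GAAA repeats, the core of the interferon-stimulated response element. IRF3 and IRF7, once phosphorylated, switch on type I interferon genes, and IRF9 binds DNA in the ISGF3 complex, which also holds STAT2, the complex that type I interferon activates. IRF1 and IRF2 compete for similar sites as activator and, mostly, repressor, and IRF5 drives inflammatory cytokine genes. IRF4 and IRF8 bind DNA best beside a partner, an ETS protein such as PU.1 or the BATF and JUN dimer, and IRF4 is needed for Th2 differentiation.

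The sequences that carry the GAAA repeats are shown first, because these are the sites that IRF proteins bind and they lie here next to genes that encode IRF proteins. An IRF tandem was searched as a pair of GAAA half-sites separated by 2 bases, on both strands. It was matched 6 times, in 4 elements, of Irf2, Irf4 and Irf7, and all 4 elements had positive folds. Each line gives 30 bases of the mm10 plus strand with the tandem in capitals. A match on the other strand reads as TTTC repeats.
Irf2 promoter, chr8:46739494-46739523: gtggggaagtGAAAATGAAAttgacttttc
Irf4 upstream, chr13:30732886-30732915: atgcagttctGAAAAAGAAAatgtaaccgt
Irf7 promoter, first intron, chr7:141266090-141266119: tgcatctcagGAAAATGAAAcctaaacagt
Irf7 promoter, exon of the protein-coding transcripts, chr7:141265825-141265854: caggtaggaaTTTCAGTTTCacaagtgtga
Irf7 downstream, chr7:141250736-141250765: ggcagtctggTTTCAGTTTCtttttttttc
Irf7 downstream, chr7:141250901-141250930: accctgcaggTTTCAGTTTCtgttcaccag

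Each of the 2 Irf7 elements held 2 tandems. The tandem was in 12.3% of all elements on assembled chromosomes, 15.6% of the positive and 4.08% of the negative ones. The longer ISRE, in which the second half-site is followed by CT, was in none of the 16 elements and in 2.68% of all elements. The Irf4 tandem and the first of the downstream Irf7 tandems lay wholly in repeat-masked sequence.

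Of the 16 elements 11 had a positive and 5 a negative fold. Over the whole series 71.5% of elements were positive. Elements were found at 6 of the 8 genes, against 68.2% of protein-coding genes with any element within 50 kb, and 85.8% of those with 6 or more annotated starts. Positive elements lay near the same 6 genes, Irf2, Irf4, Irf5, Irf7, Irf8 and Irf9 (55.1% of protein-coding genes, and 70.4% of those with 6 or more starts), and negative ones near Irf2, Irf4 and Irf5 (39.9%, and 56.0%). The median log2 fold of the positive elements was 1.40, against 1.20 for all positive elements, and that of the negative elements was -0.78, against -1.23.

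**Figure D1:**
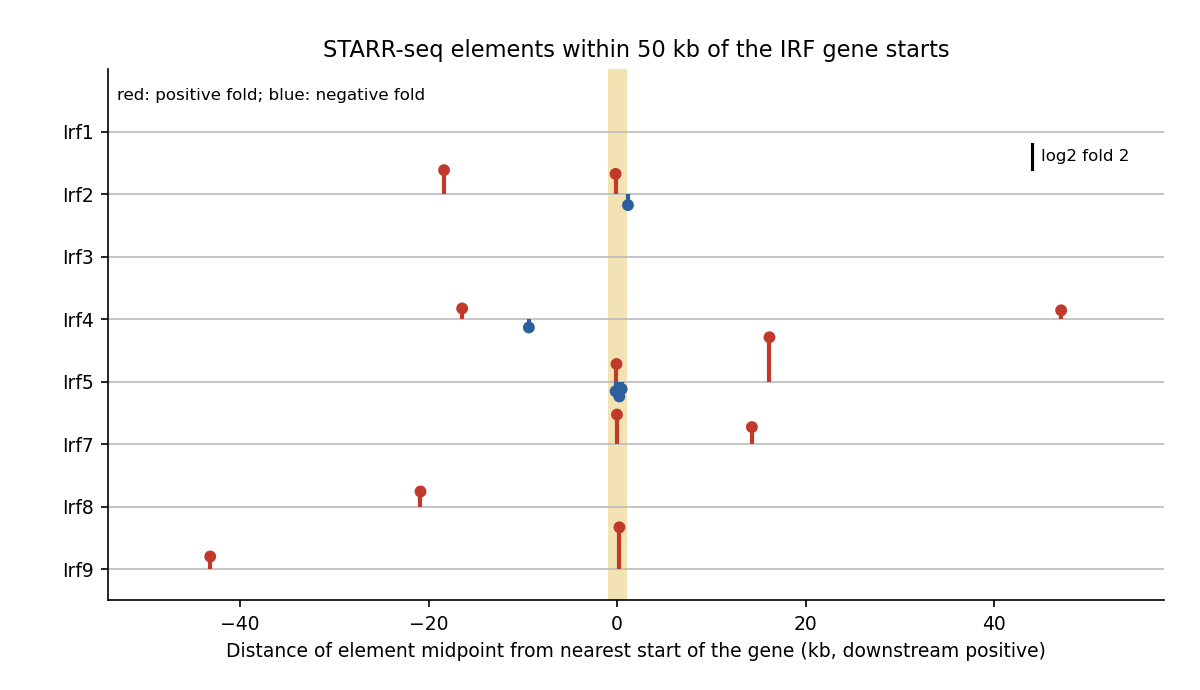
Elements within 50 kb of each IRF gene, plotted at the distance of the midpoint from the nearest start of that gene in kb (upstream to the left). The height of each stem is the log2 fold from the grey line of the gene, red for positive and blue for negative, with a scale bar, and the shaded band marks the promoter zone of 1000 bp to each side. Irf1 and Irf3 have no element, and the tallest stems are at Irf5 (3.54) and Irf9 (3.34).

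Promoter elements were present at 4 of the 8 genes, against 26.4% of protein-coding genes and 41.2% of those with 6 or more starts, and each of the 4 had a positive one. These were Irf2, Irf5, Irf7 and Irf9, while 9.86% of protein-coding genes had a positive promoter element. A gene with many annotated starts has more promoter sequence to be counted. The IRF genes had a median of 8.5 starts and protein-coding genes a median of 3, and among genes with 6 or more starts the share was 16.0%. Irf5 also had the family's 3 negative promoter elements, against 17.5% of protein-coding genes with at least 1, and 27.7% of those with 6 or more starts. In all, 4 of the 7 promoter elements were positive, and 34.4% of all elements at promoters of protein-coding genes were. Of the other 9 elements 7 were positive. Beyond 1000 bp of every protein-coding gene's start, where 7 of those 9 lay, 5 were positive, against 89.7% of all elements so placed.

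Irf9, the DNA-binding subunit of ISGF3, had the strongest promoter element of the family. It spanned chr14:55603901-55604550, with its midpoint 240.5 bp inside a start of the gene, and overlapped the first exons and the start of the coding sequence. Its log2 fold was 3.34, a 10.1-fold difference (q = 4.47e-10). Of the 2081 positive elements at promoters of protein-coding genes, 96 were at or above it.

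The Irf9 element held no IRF tandem. It held sites of the STAT kind, the family of its partner STAT2. A STAT consensus, TTCNNNGAA, lay 143 bp inside the start, and the STAT6 spacing, with TTC and GAA 4 bases apart, began right at the start, beside a GATA site (AGATAA or TGATAA). Among elements of like width (within 20%) of the same sign at promoters, 22.1% held the STAT consensus, 15.3% the STAT6 spacing and 27.4% a GATA site. The pair of stretches below, from the plus strand, show these sites in capitals and are short because they lie in annotated exons.
Irf9 at the start, GATA then STAT6 spacing, chr14:55603972-55604001: atctggAGATAAccTTCCTGGGAAccagac
Irf9 in the first exon, STAT, chr14:55604114-55604142: accacgtggtTTCTAGGAAatgcacctcc

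Irf7, the main amplifier of the type I interferon response, had a promoter element of 925 bp at chr7:141265601-141266525. Its midpoint was 19 bp upstream of the nearest start, that of a non-coding processed transcript, and 358 bp from a start of a protein-coding one. The log2 fold was 2.36 (5.13-fold, q = 1.37e-08), and 221 of the 2081 positive promoter elements were at or above it. One tandem lay 60.5 bp upstream of that processed transcript's start, in the first intron of the protein-coding transcripts. The other tandem lay in the next exon of the protein-coding transcripts, 132.5 bp upstream of the start of a retained-intron transcript. Of 743 positive promoter elements of like width 14.5% held a tandem. The first-intron match is shown with more of its surroundings, the tandem in capitals.
Irf7 first intron, plus strand, chr7:141266050-141266159: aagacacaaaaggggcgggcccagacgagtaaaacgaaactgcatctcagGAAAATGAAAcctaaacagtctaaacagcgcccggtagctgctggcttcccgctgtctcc

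A 375 bp element lay 14.3 kb downstream of an Irf7 start, at chr7:141250651-141251025, in an intron of Phrf1. It was nearer to a Phrf1 start, at 4076 bp, and 7 protein-coding genes, Irf7 included, had a start within 50 kb. Its log2 fold was 1.36 (q = 0.000943), near the middle of the distal positive elements, of which 56.6% were weaker. It held tandems at both ends of a 195-base stretch, and 47.2% of it was repeat-masked, the highest share of the 16. The stretch is shown because both of its tandems read the same letters on the minus strand, as does the exonic tandem of the promoter.
Irf7 downstream, plus strand, chr7:141250736-141250930: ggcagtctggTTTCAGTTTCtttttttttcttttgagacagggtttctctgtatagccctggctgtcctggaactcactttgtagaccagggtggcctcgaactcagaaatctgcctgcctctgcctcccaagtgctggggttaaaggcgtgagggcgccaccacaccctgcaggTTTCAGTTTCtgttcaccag

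Irf2, which antagonises IRF1 at many sites, had a positive element at its promoter, a negative one just inside the gene and a positive one far upstream. The promoter element, chr8:46739201-46739925, had its midpoint 169 bp upstream of the first start and a log2 fold of 1.61 (3.05-fold, q = 1.05e-07). Its GC content was 60.6%, a range (60 to 65%) in which 38.1% of all promoter elements were positive. The negative element, chr8:46741126-46741700, lay in an intron 1147 bp downstream of an alternative start, just outside the promoter limit, with a log2 fold of -0.89 at a q-value of 0.00996 and a GC content of 66.1%. It held none of the 18 consensus sites searched.

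The Irf2 promoter element, 725 bp wide, had the most kinds of site, at 6, a count that does not allow for width. The IRF tandem lay 223.5 bp and a STAT consensus 207 bp upstream of the start, with an NFY site (CCAATCA or CCAATGA) at 177 bp. An ETS-IRF composite (GGAA and GAAA 2 bases apart) shared its GAAA with the tandem. An NF-kB site lay at the start itself, with 90% of its bases repeat-masked. The remaining kind was NFAT (TGGAAAA). The NFAT site and a further ETS-IRF composite lay wholly in repeat-masked sequence. Of 739 positive promoter elements of like width, 15.2% held the tandem, 21.9% the STAT consensus and 27.9% an NFY site. The ETS-IRF composite was in 9.07% of them, NF-kB in 15.4% and NFAT in 12.9%. Shares were lower in the shorter promoters taken from 250 bp before to 50 bp after each RefSeq start (GRCm38.p6, 32851 promoters). There the tandem was in 3.44%, the STAT consensus in 8.30%, NFY in 11.6%, the ETS-IRF composite in 2.72% and NF-kB in 4.51%. The stretch below shows the composite, tandem, STAT and NFY sites in capitals, in that order.
Irf2 promoter, plus strand, chr8:46739488-46739568: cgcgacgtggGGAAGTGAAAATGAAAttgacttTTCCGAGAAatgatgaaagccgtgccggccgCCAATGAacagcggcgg

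The upstream Irf2 element lay 18.4 kb before the first start, at chr8:46721176-46721575, within an intron of the lncRNA gene Gm16675. Its log2 fold was 1.91 (3.76-fold, q = 1.14e-07), and 2437 of 11089 distal positive elements were at or above it. Irf2 was the only protein-coding gene with a start within 50 kb of it. Its 1 consensus site was AP-1 (TGACTCA or TGAGTCA), the site of FOS and JUN dimers, which T-cell receptor signals induce.

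Irf5 had the most elements of the family, 5, a number reached by 6.93% of protein-coding genes. Irf5 had 6 annotated starts, against a median of 3, and that share was not counted for genes with as many starts. The 3 negative ones and 1 positive one lay at its alternative starts. At the first start, in sequence of high GC content, the negative element at chr6:29526651-29527225 had a log2 fold of -1.19 (q = 0.000423) and a GC content of 72.2%. A 75 bp element just upstream, chr6:29526426-29526500, had -0.78 (q = 0.000281), and a 100 bp element inside a further start, chr6:29528701-29528800, had -0.60 (q = 0.0069). Of all 3971 negative promoter elements, 2265 were at or beyond the first of these in size, 3680 the next and 3937 the last. The first was thus near the median of its class (-1.28), and the others were among the smallest.

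The positive promoter element of Irf5 lay 69 bp upstream of yet another start, at chr6:29529101-29529325. Its log2 fold was 1.40 (2.64-fold, q = 5.58e-06) and its GC content 55.1%. It held an AP-1 site in repeat-masked sequence and an ETS-IRF composite, found in 6.60% of 106 positive promoter elements of like width. The short negative element held none of the sites searched. Both are shown to set the opposite signs side by side, with AP-1 and then the composite (on the minus strand) in capitals.
Irf5 negative element, plus strand, chr6:29526426-29526500: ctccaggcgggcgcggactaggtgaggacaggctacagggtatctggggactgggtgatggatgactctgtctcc
Irf5 positive element, plus strand, chr6:29529153-29529220: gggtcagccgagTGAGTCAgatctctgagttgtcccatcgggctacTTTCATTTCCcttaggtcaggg

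The largest fold of the 16 elements was at chr6:29557001-29557600, at log2 3.54 (11.6-fold, q = 2.26e-10). It lay 16.2 kb downstream of the last annotated Irf5 start, that of a processed transcript, and 26.1 kb from the nearest start of a protein-coding Irf5 transcript. It also overlapped Tnpo3, which encodes a nuclear import receptor, and its midpoint was 235.5 bp from the start of a Tnpo3 retained-intron transcript. Only 6.83% of positive elements reached a log2 fold of 3. This element, at a GC content of 43.2%, held none of the consensus sites searched, and 200 bases of it are shown in full lower case for that reason.
Irf5 downstream, in Tnpo3, plus strand, chr6:29557200-29557399: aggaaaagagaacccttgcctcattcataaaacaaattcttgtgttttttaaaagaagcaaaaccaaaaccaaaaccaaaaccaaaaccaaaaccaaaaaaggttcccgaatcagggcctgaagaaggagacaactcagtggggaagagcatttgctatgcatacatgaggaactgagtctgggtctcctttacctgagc

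**Figure D2:**
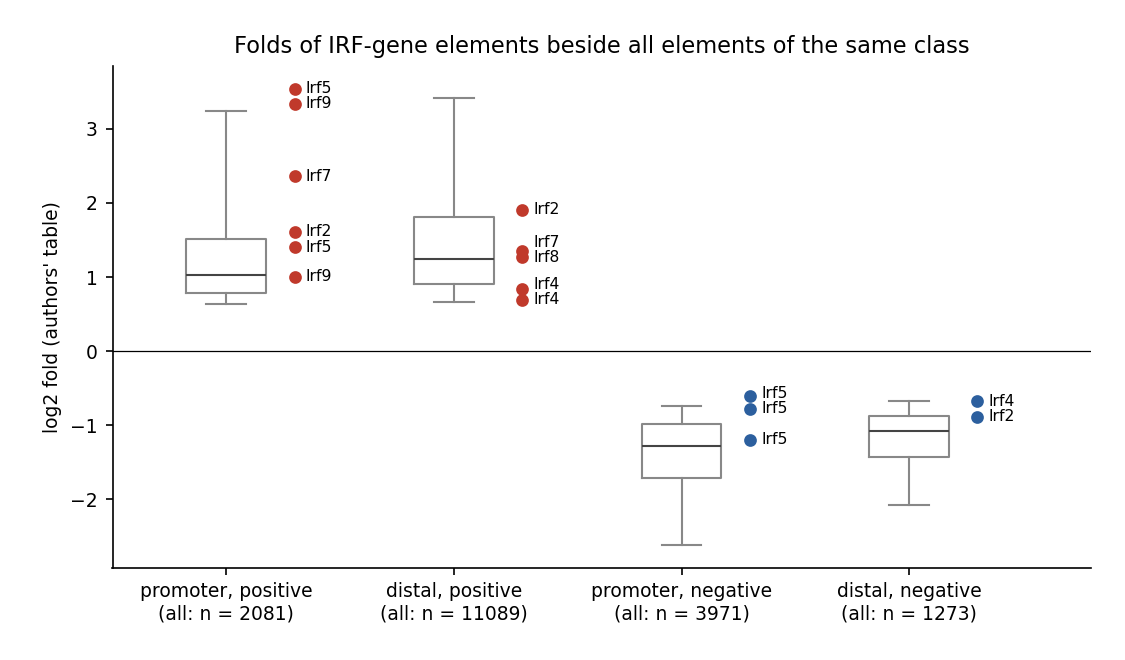
Log2 folds of the 16 elements (coloured points with the gene name) beside all elements on assembled chromosomes, shown as boxes (quartiles and median) with whiskers at the 5th and 95th percentiles. Elements at the promoter of any protein-coding gene stand as promoter, so the Tnpo3 and Dcaf11 elements of Irf5 and Irf9 are there. The Irf5 (3.54) and Irf9 (3.34) points lie above the upper whisker, and the weakest negative points, of Irf5 (-0.60) and Irf4 (-0.68), lie at the weak end of their whiskers or beyond it.

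Irf4, the family member with an established part in Th2 differentiation, had no promoter element and 3 weak distal ones. Upstream, chr13:30732501-30733075 at 16.4 kb had a log2 fold of 0.84 (q = 0.00203) and chr13:30739651-30740075 at 9.4 kb had -0.68 (q = 0.00835). Downstream, chr13:30796201-30796600 at 47.1 kb, the member closest to the 50 kb limit, had 0.70 (q = 0.00254). Of all distal positive elements 19.2% and 7.52% were weaker than the positive pair. Irf4 was the only protein-coding gene with a start within 50 kb of each.

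The stronger of these held an IRF tandem, a STAT6 spacing and a GATA site. Of 3318 distal positive elements of like width 17.4% held a tandem, 18.2% the STAT6 spacing and 42.5% a GATA site. The stretch with the STAT6 spacing and the tandem in capitals is shown because STAT6, activated by IL-4, and IRF4 both act in Th2 cells.
Irf4 upstream, plus strand, chr13:30732768-30732915: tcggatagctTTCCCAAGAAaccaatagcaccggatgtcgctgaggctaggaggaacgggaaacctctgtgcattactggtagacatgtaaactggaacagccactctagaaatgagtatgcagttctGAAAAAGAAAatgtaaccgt

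Irf8, best known for its role in myeloid and B cells, had 1 element, 20.9 kb upstream at chr8:120715126-120715725, in an intron of the annotated gene Gm20388. Its log2 fold was 1.27 (2.41-fold, q = 0.00161), and 51.8% of distal positive elements were weaker. It held a STAT consensus and an AP-1 site. These were in 32.3% and 47.2% of 3106 distal positive elements of like width. The sites are in capitals, STAT first.
Irf8 upstream, plus strand, chr8:120715424-120715511: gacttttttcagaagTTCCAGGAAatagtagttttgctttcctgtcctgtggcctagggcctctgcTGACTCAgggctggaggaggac

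The remaining distal element was assigned to Irf9, 43.2 kb upstream at chr14:55559851-55560975, and lay 7 bp from a start of A730061H03Rik and at a promoter of Dcaf11. Its log2 fold was 1.00 (q = 0.00196). It held 4 NFY sites and the only cyclic AMP response element (CRE, TGACGTCA) of the 16, and 11 protein-coding genes, Irf9 included, had a start within 50 kb. By distance it was nearer to A730061H03Rik and Dcaf11 than to Irf9.

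AP-1 was the site held by as many elements as GATA, at 5 of 16 each. In the whole table AP-1 was in 28.0% of elements, 35.2% of the positive and 9.95% of the negative ones. GATA was in 26.7%, 30.8% and 16.5%. Of the 5 elements with AP-1, 4 were positive and 1, upstream of Irf4, was negative. The 29-base contexts are set side by side with the site in capitals and the log2 fold of the element in the name.
Irf2 upstream, log2 1.91, chr8:46721255-46721283: agacctgaaacTGAGTCAtagattaagca
Irf5 promoter, log2 1.40, chr6:29529154-29529182: ggtcagccgagTGAGTCAgatctctgagt
Irf8 upstream, log2 1.27, chr8:120715479-120715507: agggcctctgcTGACTCAgggctggagga
Irf4 downstream, log2 0.70, chr13:30796324-30796352: gaatcggagtgTGACTCActgtgagtcct
Irf4 upstream, log2 -0.68, chr13:30739953-30739981: cagtactaagcTGAGTCActgtcagcata

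The site itself was the same in the positive Irf2 and the negative Irf4 element. The composite sites of AP-1 with IRF, at which IRF4 and BATF bind together, were in none of the 16 elements and in 1.72% of all elements. RUNX (TGTGGTT), ETS (CCGGAAGT), SP/KLF (GGGGCGGGG), YY1, NRF1 and CTCF sites were also in none. Of all elements, 13.9% held RUNX, 12.4% SP/KLF, 2.82% ETS, 2.03% CTCF, 0.76% NRF1 and 0.69% YY1. Of the 5 negative elements 3 held no site within the called span, and the others held 1 AP-1 and 1 NF-kB site. Those without a site were 75 and 100 bp (Irf5) and 575 bp (Irf2) wide. The share of all negative elements without any site was not counted, and the count does not allow for width. SP/KLF sites, in 32.1% of all negative elements, were thus not matched in the negative elements of Irf5 as called. The RefSeq promoter of Irf5 had overlapping SP/KLF sites at its start, between its upstream and downstream negative elements. A window of 300 bp around each midpoint reaches past the called edges of the 75 and 100 bp elements. In that window 2 of the 5 negative elements held NF-kB and 1 held GATA, against 7.04% and 6.77% of all negative elements.

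**Figure D3:**
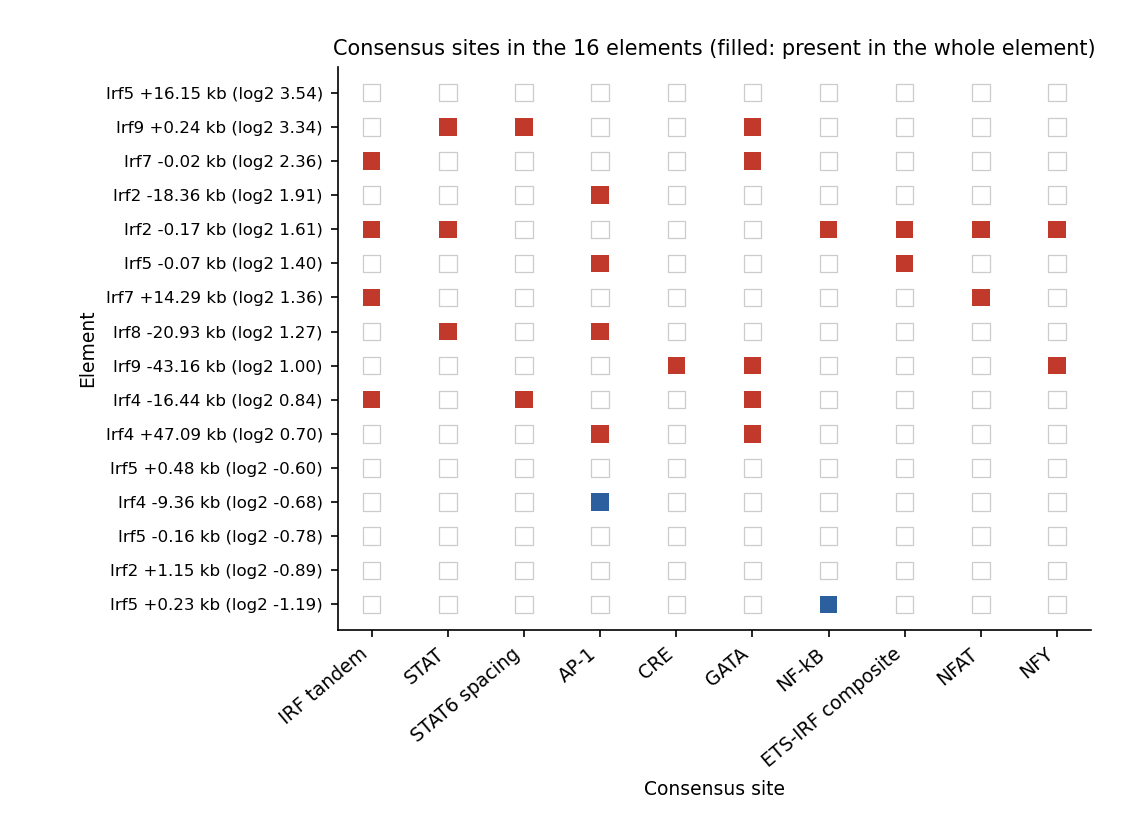
Consensus sites in each of the 16 elements, ordered by log2 fold from the top. A filled square marks a site present anywhere in the element, red in positive and blue in negative elements, and sites found in no element are left out. The strongest element (Irf5, 3.54) has no site, the Irf2 promoter element has 6, and 3 of the 5 negative elements (75, 100 and 575 bp wide) have none.

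Irf1 and Irf3 had no element in the table within 50 kb. Irf1 is itself induced by interferon, and IRF3 is present in most cells and awaits activation. The nearest element to Irf1 was 56.2 kb from a start, near Rad50, at log2 1.18, and the nearest to Irf3 was 67.9 kb away, near Ap2a1, at 0.67. Just outside the limit were also an Irf4 element at 52.8 kb (log2 0.99) and an Irf8 element at 60.3 kb (1.29). Irf1 lies beside the Th2 cytokine genes, with 49.2 kb between the nearest starts of Irf1 and Il5. Regions missing from the table may have been untested or tested without passing the authors' limit, which cannot be told apart here.

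The 4 genes with a promoter element each had at least 1 of the sites in a RefSeq promoter, and so did 2 of the 4 without one. Irf7 was counted through a GATA site alone, a site held by 18.6% of the 32851 RefSeq promoters. The share of all RefSeq promoters with at least 1 of the sites was not counted. Without that share, the counts do not show whether sites and promoter elements go together. The Irf1 RefSeq promoter held a STAT consensus 90 bp upstream of its start and an NF-kB site at 13 bp, and the Irf8 promoter held a pair of STAT consensus sites at 171 and 153 bp. Those of Irf3 and Irf4 held none of the sites searched. The Irf1 and Irf8 stretches are shown with these sites in capitals, as promoters with STAT sites and no element.
Irf1 promoter, plus strand, chr11:53769914-53770013: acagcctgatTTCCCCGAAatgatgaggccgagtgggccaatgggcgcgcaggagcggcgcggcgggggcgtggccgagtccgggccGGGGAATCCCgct
Irf8 promoter, plus strand, chr8:120736177-120736223: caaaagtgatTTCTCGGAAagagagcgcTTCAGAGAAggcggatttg

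The Irf1 and Irf2 promoter stretches were both cut to include a STAT consensus, which always ends in GAA. The longest run shared by the Irf1 and Irf2 promoter stretches was gaaatgatga, which covers the end of the STAT site, and 29 of the 32851 promoters (0.0883%) held that run on either strand. It was looked for after the sequences had been seen, so its share does not measure how alike the surroundings are. Irf2 had a positive element over this sequence and Irf1 had none.

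Base composition differed among the promoter elements. The 4 positive ones ranged from 52.9% to 60.6% in GC content and the 3 negative ones from 56.0% to 72.2%, so the ranges overlapped. Among all promoter elements the share of positive ones was 83.7% at a GC content of 50 to 55%, 67.0% at 55 to 60% and 6.44% at 65% or more. In the kilobase around the first protein-coding start, GC content was 52.5% at Irf7, 53.0% at Irf9, 55.5% at Irf3, 56.9% at Irf2, 57.4% at Irf4, 61.4% at Irf8, 65.5% at Irf1 and 70.3% at Irf5, and the median of protein-coding genes was 54.9%. The strongest promoter folds, of Irf9 and Irf7, were thus at the lowest values, while Irf1 and Irf8, at high values, and Irf3 and Irf4, near the median, had no promoter element of either sign.

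**Figure D4:**
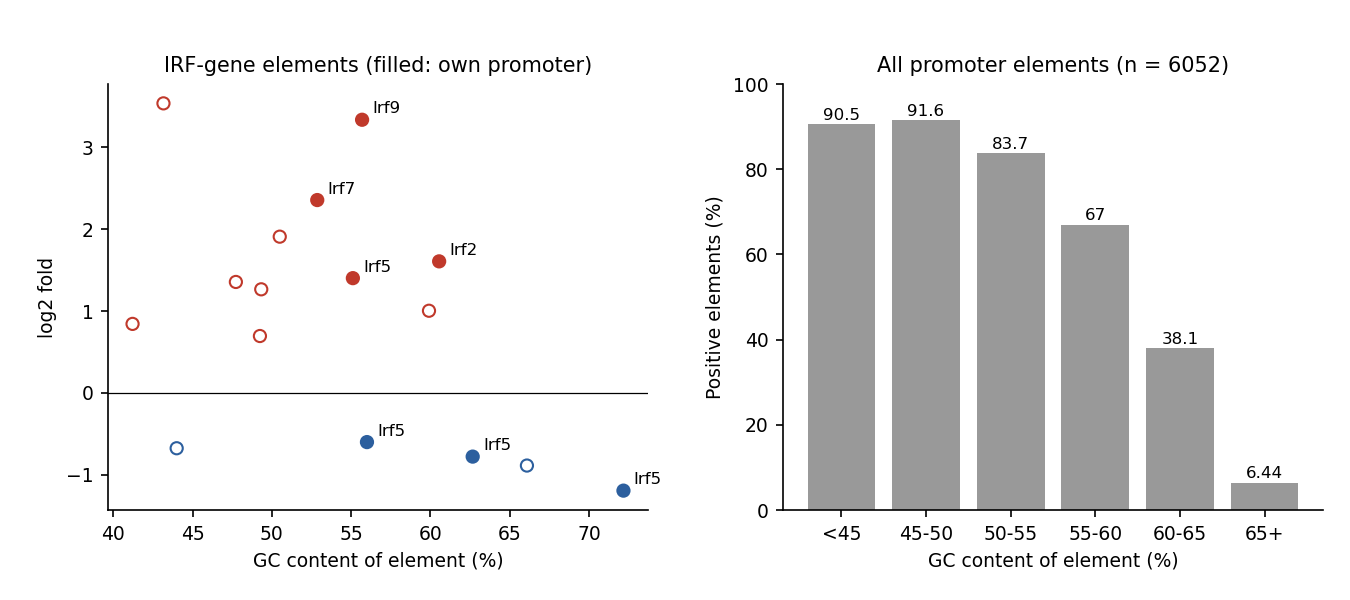
Left, log2 fold against GC content (%) of the 16 elements, filled for a promoter element of the gene itself and open for the others. Right, percentage of positive elements among all 6052 promoter elements by GC content, at 90.5% below 45%, 91.6% at 45 to 50% and lower in each later bin, down to 6.44% at 65% and above.

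Each of the 16 elements matched the genome at its own place only, with no other match of at least 90% identity over 80% of its length. Widths ran from 75 to 1125 bp.

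Genes that work with the IRF proteins were counted in the same way, for the 33 genes of a longer list that are reported here. The list was drawn up with earlier results of these data known, so its counts are a description and nothing is read from them. All 33 had an element within 50 kb (68.2% of protein-coding genes), 30 had a positive one (55.1%) and 18 a negative one (39.9%). The list had a median of 4 annotated starts. Positive promoter elements were at 9 of the 33 genes (9.86% of protein-coding genes) and negative ones at 6 (17.5%). The IRF genes themselves had elements at 6 of 8.

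Among the partners that sit on DNA with IRF proteins, all 9 (Batf, Batf2, Batf3, Jun, Junb, Jund, Spi1, Spib and Ikzf1) had positive elements and 1, Batf3, had a negative one, where 55.1% and 39.9% of protein-coding genes did. The Junb promoter element had a log2 fold of 1.86, that of Jun 1.10 and that of Spi1, which encodes PU.1, 0.88. Stat2, whose product joins IRF9 in ISGF3, had a positive promoter element at 1.62 with an IRF tandem.

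Among the 9 receptors and receptor kinases, 3 had a negative and 1 a positive promoter element, and among the 11 activating kinases and adaptors 3 had a negative and 4 a positive one. Over all protein-coding genes 17.5% had a negative and 9.86% a positive one. Tbk1, the kinase that phosphorylates IRF3 and IRF7, had its only element at the promoter, at -2.87, and that element too held an IRF tandem. So did the Tmem173 promoter element, and distal elements of Ifnar1, Il10rb, Jak2, Tyk2, Tmem173, Batf3 and Irf2bpl. The Il10rb element, chr16:91444976-91445350, was counted for Ifnar1 as well. The tandem was in 12.3% of all elements, 15.6% of the positive and 4.08% of the negative ones. Jak2 had a promoter element at -2.60, Ifnar1 at -1.09 and Ifngr1 at -0.96, while that of Ifngr2 was at 1.02. Of the adaptors, Traf3 had a pair of negative promoter elements (both -2.18) and Irak1 one at -1.44, and those of Mavs (1.04), Tmem173 (1.02), Traf6 (0.99) and Ikbke (0.69) were positive. A distal Irak1 element was at 3.34.

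**Figure D5:**
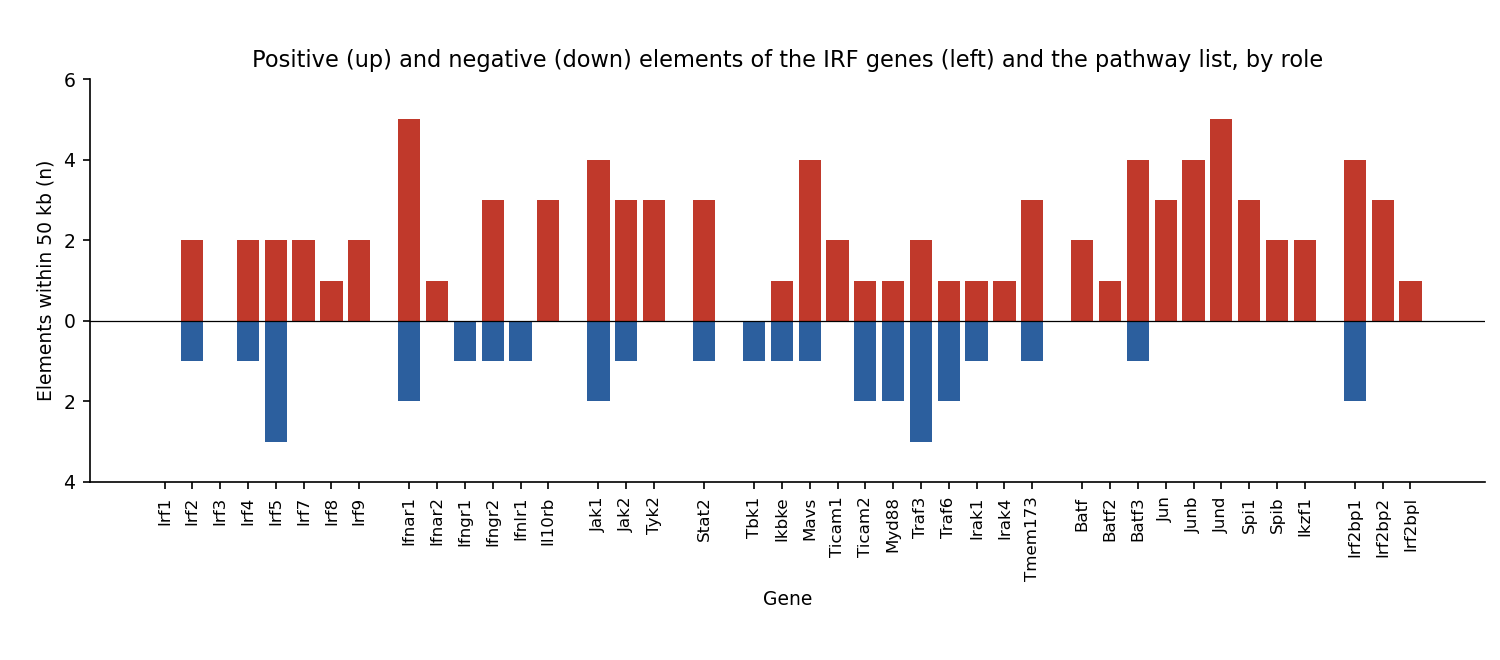
Number of positive (red, upward) and negative (blue, downward) elements within 50 kb of each IRF gene (left group) and of each of the 33 genes of the pathway list, grouped by role. Irf1 and Irf3 are empty, Irf5 has 3 negative elements, and the group from Batf to Ikzf1 has a single negative element.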

How the data were processed

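The authors deposited 1 element table on mm10 for both libraries, derived from their alignments per the deposited file lists. Which aligner, caller and test made it was not stated in the labels or headers. Its signed log2 fold and its linear p-value and q-value (all below 0.01) are the authors' deposited values. Widths equalled end minus start plus 1 in all 18431 elements, so starts count from 1. The 17 elements on unplaced scaffolds were left out of sequence work.

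Distances were taken from element midpoints to GENCODE M21 starts, and sequences from GRCm38.p6, the same build (Python 3.11.15, pandas 2.3.3). Copies were sought with blastn 2.17.0. Promoters are RefSeq's, and all 8 genes matched by symbol. The 18 consensus sites were searched on both strands of whole elements, with exact matches. ISRE matches hold an IRF tandem, and AP-1-IRF composites can hold AP-1.

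Promoter elements and the 3 distal elements per sign and gene with the lowest q-values were to be named, which covered all 16. Site and distance steps were tested on planted data. Members and lists were chosen with earlier results of these data known. Of the pathway list, 2 genes are not reported here. With no value per library, all results are descriptions beside percentages over all elements or genes.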

Additional observations from a re-analysis of the deposited data

How the results depend on the processing

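Of 74 recomputed values 49 stayed within 1.5 times the count reported, or at the same median, and 25 moved. The values were counts or medians of positive elements, so none could turn in sign. With a window of 100 kb the family had 36 elements (25 positive, 11 negative; 21 and 8 of them distal, median log2 1.20 for the distal positive), and 28 pathway genes had a negative element. With 25 kb the distal positive elements numbered 5 (median 1.36). At a q-value below 0.001, 9 elements were left (7 positive, 2 negative), with 3 distal positive (median 1.91) and 0 distal negative. Requiring a log2 fold of 1 or more in size, 10 were left, 1 of them negative, with 5 distal positive (median 1.36) and 0 distal negative. Distances from the element's edge, or promoters of 2000 bp, left 1 distal negative element. Elements with an IRF gene as the nearest protein-coding gene included 4 distal positive ones (median 1.06). With the longer ISRE 0 elements held the site. The median of the distal positive elements as reported was 1.27, from 7 elements.

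No paired analysis was possible because the table holds no value per library, which also leaves no library to leave out. Counts this small change by large ratios when 1 or 2 elements enter or leave. Depth is unknown here.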
